A study of Mus musculus with 6 samples.

Results

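Matrix metalloproteinases (MMPs) and their inhibitors were followed in RNA of sorted Kupffer cells, the macrophages that reside in liver. Members were taken by gene name from the deposited count table: the MMP genes Mmp12, Mmp13, Mmp9, Mmp8, Mmp14, Mmp2 and Mmp19, and the inhibitor genes Timp1, Timp2 and Timp3, together 10 of the 54532 genes listed. The 6 libraries came from male mice, 3 deficient in Trem2 (Trem2_KO) and 3 littermates labelled as control and titled WT. Animals of both groups were 8 weeks old when they began 8 weeks of high fat diet, and no other diet was analysed here. The labels give neither the part of Trem2 that was deleted, nor the gate of the sort, nor whether a library is 1 mouse. All p-values therefore rest on the spread between these libraries, which may be technical. TREM2 is a receptor through which macrophages sense lipids, and the comparison addresses what its loss does to Kupffer cell RNA on this diet.

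MMPs are zinc-dependent endopeptidases that cleave collagens, elastin, basement membrane and many cell-surface proteins. Most are secreted as inactive proenzymes whose propeptide blocks the catalytic zinc, and some are anchored in the membrane. Tissue inhibitors of metalloproteinases (TIMPs) bind the active site and hold the enzymes in check. In mouse liver, macrophages are known as a source of the elastase MMP12 and the collagenase MMP13 during scar remodelling.

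Total counts were 16347967 to 17135603 in Trem2_KO and 15799351 to 15893041 in WT libraries, and 3 reads, the limit that a count of 0 allows, corresponded to 0.173 to 0.192 CPM (TMM-scaled here and below). This limit covers counting error only. Trem2 itself was read at 14.5 to 17.4 CPM in Trem2_KO and 84.3 to 90.1 CPM in WT, in the direction of the labels in all 6 libraries (log2 change -2.42, SE 0.0641, edgeR adjusted p = 1.68e-35). The Kupffer cell marker Clec4f had 186127 to 195111 reads in Trem2_KO libraries and 188143 to 198436 in WT libraries. Scaled, it stood at 11000 to 11300 CPM in Trem2_KO and 12000 to 12700 CPM in WT. It was called lower (log2 change -0.14, SE 0.021, edgeR adjusted p = 3.91e-07). Of 13776 genes that passed the filter on low counts, edgeR's quasi-likelihood test called 30.4% (adjusted p under 0.05 after Benjamini-Hochberg), 15.3% higher and 15.1% lower in Trem2_KO. Higher genes made up 50.3% of the calls, and 61.3% when libraries were scaled by total counts in place of TMM.

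Regulatory sequence upstream of the members is shown for the largest rises, Mmp13 and Mmp12, for the membrane-anchored Mmp14, and for Timp2, the 1 member that fell. Windows of 300 bases, 250 before to 50 after an annotated start, were taken from RefSeq on build GRCm38.p6, where 7 of 10 members had 8 windows. Mmp9, Mmp2 and Mmp19 had none. The Mmp13 window (chr9:7272264-7272563, plus strand) is placed on the annotated start of the gene. Mmp12 has an upstream window (chr9:7344147-7344446, plus strand) and a downstream window (chr9:7347124-7347423, plus strand) on a start site 2993 bases into the gene span, whose first 250 bases lie in no annotated Mmp12 exon. The Mmp14 window is chr14:54431348-54431647 on the plus strand, and the Timp2 window is chr11:118355362-118355661 on the minus strand, where 203 of the first 250 bases lie in annotated Timp2 exons. Capitals mark every match, on either strand, to the AP-1, PEA3 (an ETS motif), TATA and GC box motifs spelled out after the sequences.
Mmp13: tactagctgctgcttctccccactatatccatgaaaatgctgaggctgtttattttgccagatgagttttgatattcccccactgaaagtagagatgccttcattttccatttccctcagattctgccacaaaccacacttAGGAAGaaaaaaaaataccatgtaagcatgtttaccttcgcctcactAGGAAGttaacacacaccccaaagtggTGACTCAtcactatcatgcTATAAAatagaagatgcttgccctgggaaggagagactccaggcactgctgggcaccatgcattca
Mmp12 downstream start: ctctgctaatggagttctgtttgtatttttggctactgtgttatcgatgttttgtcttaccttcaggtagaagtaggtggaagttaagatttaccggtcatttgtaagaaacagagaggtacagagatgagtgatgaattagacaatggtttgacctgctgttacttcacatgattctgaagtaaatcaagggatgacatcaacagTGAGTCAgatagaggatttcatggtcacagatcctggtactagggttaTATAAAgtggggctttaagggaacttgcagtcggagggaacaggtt
Mmp12 upstream start: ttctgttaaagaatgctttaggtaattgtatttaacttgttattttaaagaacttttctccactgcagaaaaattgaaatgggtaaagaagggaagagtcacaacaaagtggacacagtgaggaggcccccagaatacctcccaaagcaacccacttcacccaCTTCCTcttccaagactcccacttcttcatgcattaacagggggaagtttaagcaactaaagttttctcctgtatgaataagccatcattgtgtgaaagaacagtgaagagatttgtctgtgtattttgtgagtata
Mmp14: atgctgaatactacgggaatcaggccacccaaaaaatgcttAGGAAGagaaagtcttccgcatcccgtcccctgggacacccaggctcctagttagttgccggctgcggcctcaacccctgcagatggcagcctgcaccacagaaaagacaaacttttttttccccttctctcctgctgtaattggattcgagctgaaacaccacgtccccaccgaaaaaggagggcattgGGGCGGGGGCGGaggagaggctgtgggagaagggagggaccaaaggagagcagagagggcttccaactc
Timp2: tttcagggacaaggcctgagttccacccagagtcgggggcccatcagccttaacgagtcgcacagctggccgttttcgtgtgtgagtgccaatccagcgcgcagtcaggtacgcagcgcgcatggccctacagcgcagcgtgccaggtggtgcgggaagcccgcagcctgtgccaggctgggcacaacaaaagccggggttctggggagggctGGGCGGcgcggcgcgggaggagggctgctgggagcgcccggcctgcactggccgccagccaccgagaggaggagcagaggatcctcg

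An AP-1 motif, TGANTCA, was found in the Mmp13 window at -35 and in the downstream Mmp12 window at -44, counted from the start site as +1. It was found in none of the other 6 member windows and in 7.81% of all 32851 RefSeq windows. Both of these windows held a TATA motif, written TATAAA, at -16 in Mmp13 and at 5 in Mmp12, against 13.6% of all windows, and so did the window of Mmp8 (-3), which was not called. PEA3 motifs, written AGGAAG, stood at -109 and -62 in the Mmp13 window, at -87 in the upstream Mmp12 window and at -209 in the Mmp14 window, and were found in 6 of the 8 member windows, those of Mmp8, Timp3 and Timp1 included, against 35.4% of all windows. The Mmp14 and Timp2 windows held neither AP-1 nor TATA motifs but GC boxes, written GGGCGG, at -19 and -13 in Mmp14 and at -37 in Timp2, as did the windows of Timp3 and Timp1, together 4 of 8, against 35.7% of all windows. G and C made up 43.7% of the Mmp13 window, 40.7% of the downstream Mmp12 window, 56% of the Mmp14 window and 68.7% of the Timp2 window, beside a median of 52.7% over all windows. No 2 matches overlapped in the member windows. A match describes these letters only.

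Of the 10 members, 9 passed the filter on low counts, 6 were called higher and 1 was called lower in Trem2_KO, beside 15.3% and 15.1% of all tested genes. The groups did not overlap for 5 higher and 1 lower member, beside 20.9% and 20.7% of tested genes. Of the 7 MMPs 5 were called higher, and of the inhibitors Timp3 was called higher, Timp2 lower and Timp1 was too low to test. A rise of at least 4-fold was called for 2 members, Mmp13 and Mmp12, and for 0.356% of tested genes. A rise of at least 2-fold was called for 4 members, and for 1.98% of tested genes. The median log2 change of the 9 tested members was 0.71, against -0.0051 for all tested genes. In these bulk libraries, more cells that carry a transcript and more RNA per cell cannot be told apart.

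**Figure D1:**
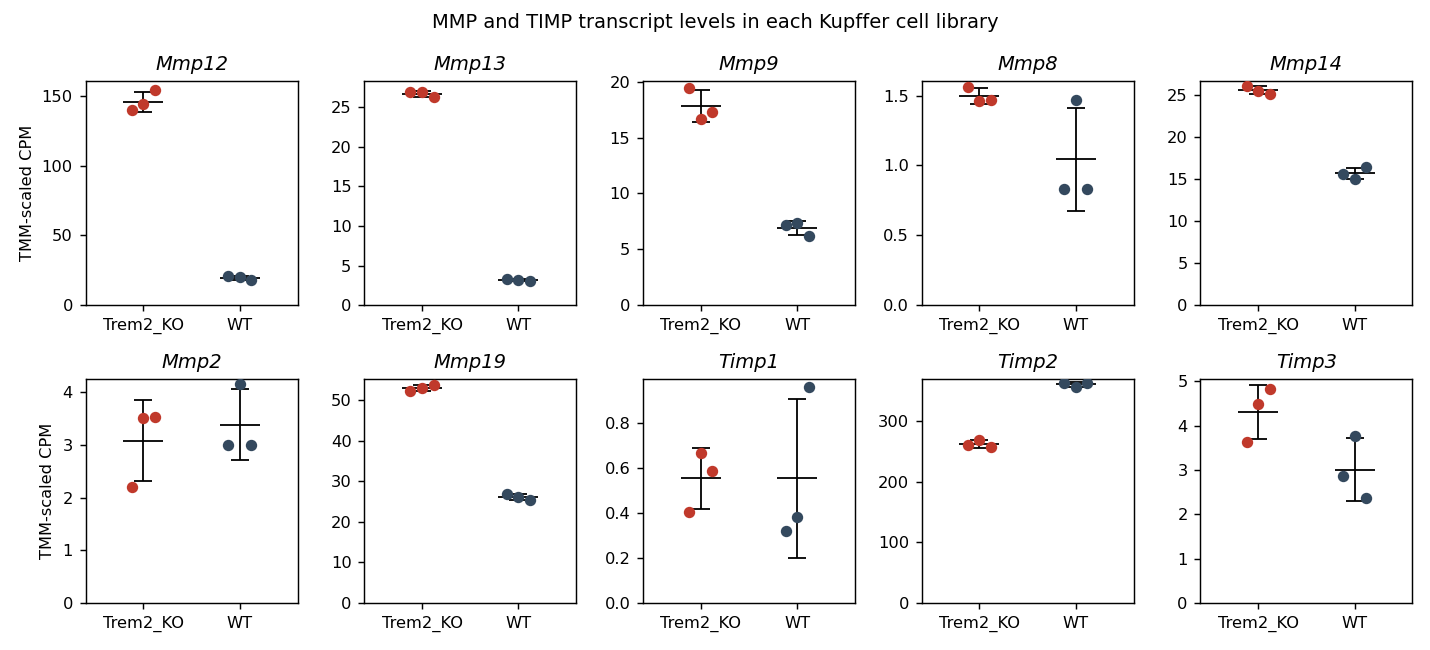
TMM-scaled CPM (vertical axes, each from 0) of the 10 members in each of 3 Trem2_KO (left, red) and 3 WT (right, dark) libraries; points are libraries, and bars are the mean ± SD. The groups are apart for Mmp12, Mmp13, Mmp9, Mmp14, Mmp19 and Timp2 and overlap for Mmp8, Mmp2, Timp1 and Timp3.

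Macrophage elastase and 1 of the interstitial collagenases, Mmp13, came first in the size of the change, while another collagenase, Mmp8, was not called. Mmp12 (ENSMUSG00000049723, chromosome 9, 7344381 to 7369499, plus strand, GRCm38), an elastase that macrophages secrete, was read at 140, 144 and 154 CPM in Trem2_KO and at 20.9, 19.9 and 18.3 CPM in WT. All 3 knockout libraries lay above all WT libraries. The rise was 7.41-fold (95% interval 6.86 to 8.02, log2 change 2.89, SE 0.056, n = 3 per group, edgeR adjusted p = 9.13e-42), and 0.145% of tested genes had a larger one. Its end shares 157 exonic bases with Mmp1b on the other strand, and Mmp1b had 0 reads in all libraries.

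Mmp13 (ENSMUSG00000050578, chromosome 9, 7272514 to 7283331, plus strand), the main collagenase of rodents, was read at 26.9, 26.9 and 26.2 CPM in Trem2_KO and at 3.26, 3.2 and 3.07 CPM in WT. The libraries of each group lay close together and the groups far apart, with 443 to 466 reads in Trem2_KO and 48 to 51 in WT. The rise was 8.39-fold (95% interval 7.13 to 9.87, log2 change 3.07, SE 0.117, n = 3 per group, edgeR adjusted p = 1.45e-28). The log2 intervals of Mmp13 (2.83 to 3.3) and Mmp12 (2.78 to 3) overlap, and the difference between the genes was not tested.

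Mmp8 (ENSMUSG00000005800, chromosome 9, 7558456 to 7568485), a collagenase best known from neutrophil granules, had low counts but passed the filter. It was read at 1.56, 1.46 and 1.47 CPM in Trem2_KO and at 0.83, 1.47 and 0.831 CPM in WT, that is 24 to 27 and 13 to 23 reads. WT library 2 lay within the knockout range. Its log2 change of 0.52 (SE 0.335, 95% interval -0.16 to 1.19, edgeR adjusted p = 0.258) was not called, and the interval leaves room for a 2.28-fold rise.

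The gelatinases did not move alike. Mmp9 (ENSMUSG00000017737, chromosome 2, 164940780 to 164955850), gelatinase B, which cleaves denatured and basement membrane collagen, was read at 19.4, 16.7 and 17.3 CPM in Trem2_KO and at 7.22, 7.35 and 6.2 CPM in WT. The groups did not overlap, and the rise was 2.57-fold (95% interval 2.2 to 3.01, log2 change 1.36, SE 0.113, edgeR adjusted p = 1.49e-14). Mmp2 (ENSMUSG00000031740, chromosome 8, 92827291 to 92853420), gelatinase A, which is known from stellate cells and fibroblasts, was read at 2.2, 3.52 and 3.53 CPM in Trem2_KO and at 3, 4.16 and 3 CPM in WT. The groups overlapped, and its log2 change of -0.14 (SE 0.215, 95% interval -0.57 to 0.29, edgeR adjusted p = 0.677) was not called. The 95% intervals of Mmp9 and Mmp2 do not meet, and the difference between the genes was not tested further.

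Mmp14 (ENSMUSG00000000957, chromosome 14, 54431612 to 54445364), the membrane-anchored MT1-MMP that cleaves collagen at the cell surface and activates pro-MMP2 and pro-MMP13, was read at 26.1, 25.5 and 25.1 CPM in Trem2_KO and at 15.6, 15 and 16.4 CPM in WT. The groups did not overlap, and the rise was 1.63-fold (95% interval 1.45 to 1.83, log2 change 0.71, SE 0.0836, edgeR adjusted p = 1.06e-09). Mmp19 (ENSMUSG00000025355, chromosome 10, 128790910 to 128800824), a secreted MMP of myeloid cells among others, was read at 52.4, 53 and 53.9 CPM in Trem2_KO and at 26.9, 26.1 and 25.4 CPM in WT. It differed 2.03-fold with no overlap (95% interval 1.87 to 2.22, log2 change 1.02, SE 0.0618, edgeR adjusted p = 7.68e-20). Mmp19 shares 789 exonic bases with Tmem198b on the other strand, looked up after its values were seen, which had 170 to 186 reads in Trem2_KO and 106 to 125 in WT against 874 to 916 and 397 to 421 for Mmp19. No source used here gives the strand setting of the counting, so reads of that stretch cannot be told apart.

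**Figure D2:**
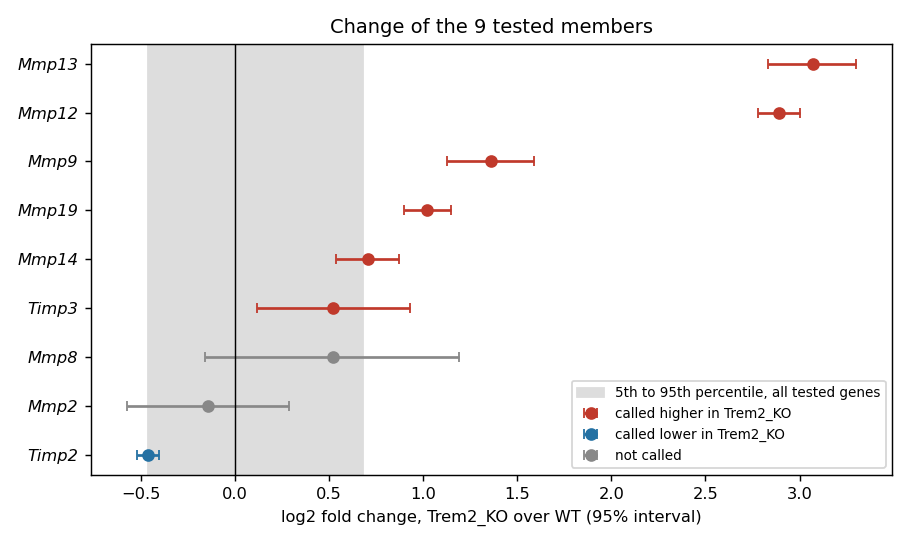
Log2 fold change of Trem2_KO over WT (horizontal axis) with 95% intervals for the 9 tested members, coloured by call; the grey band spans the 5th to 95th percentile of all tested genes, -0.46 to 0.68. Mmp13, Mmp12, Mmp9, Mmp19 and Mmp14 lie right of the band, and Timp2, at -0.46, lies at its left edge.

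The inhibitors were led by Timp2, which fell. Timp2 (ENSMUSG00000017466, chromosome 11, 118301069 to 118355740, minus strand), a secreted inhibitor that also serves MMP14 in the activation of pro-MMP2, was read at 260, 269 and 257 CPM in Trem2_KO and at 363, 356 and 363 CPM in WT. All 3 knockout libraries lay below all WT libraries. It fell to 0.727 times the WT level (95% interval 0.696 to 0.759, log2 change -0.46, SE 0.0307, n = 3 per group, edgeR adjusted p = 3.86e-18), and 4.99% of tested genes fell further on this scale. With 4372 to 4501 reads in Trem2_KO and 5572 to 5681 in WT, it was the most deeply counted member.

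Timp3 (ENSMUSG00000020044, chromosome 10, 86300372 to 86349506), the inhibitor that binds to the matrix and also blocks ADAM17, was read at 3.64, 4.49 and 4.82 CPM in Trem2_KO and at 2.87, 3.77 and 2.37 CPM in WT. Knockout library 1 lay below WT library 2, so the groups overlapped. It was called higher by a narrow margin (log2 change 0.52, SE 0.202, 95% interval 0.12 to 0.93, edgeR adjusted p = 0.0432). The call was lost with DESeq2 (adjusted p = 0.182) and limma-voom (0.0562), and in edgeR on leaving out knockout replicate 2 (0.117), knockout replicate 3 (0.161), WT replicate 1 (0.113) or WT replicate 3 (0.204). Timp3 shares 1733 exonic bases with Syn3 on the other strand, which had 12 to 16 reads in Trem2_KO and 8 to 16 in WT.

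Timp1 (ENSMUSG00000001131, chromosome X, 20870166 to 20874735), the inducible inhibitor used as a marker of liver fibrosis, did not pass the filter on low counts. It had 7, 11 and 10 reads in Trem2_KO libraries and 5, 6 and 15 in WT libraries, or 0.405 to 0.668 CPM in Trem2_KO and 0.319 to 0.959 CPM in WT. The knockout range lay inside the WT range. With no filter its log2 change was -0.02 (SE 0.521, 95% interval -1.04 to 1.01, edgeR adjusted p = 0.983), an interval that does not exclude a change of about 2-fold in either direction. Timp1 lies within Syn1 on the other strand without sharing exonic bases, and Syn1 had 985 to 1077 reads in Trem2_KO and 732 to 897 in WT.

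Levels of different genes were set side by side in the deposited FPKM, which divides by gene length, here the merged exons of all annotated transcripts. In Trem2_KO the order was Timp2 at 66.9 ± 1.56 FPKM, Mmp12 at 20 ± 0.976, Mmp19 at 14.9 ± 0.222, Mmp13 at 9.92 ± 0.141, Mmp9 at 5 ± 0.4 and Mmp14 at 4.26 ± 0.0868 (SD, n = 3), with no overlap between neighbours. In WT the order was Timp2 at 92.1 ± 0.967 FPKM, Mmp19 at 7.36 ± 0.22, Mmp12 at 2.71 ± 0.183, Mmp14 at 2.62 ± 0.121, Mmp9 at 1.95 ± 0.179 and Mmp13 at 1.18 ± 0.0371. Mmp12 and Mmp14 overlapped there, as did Mmp13 and Mmp2. Mmp2, Mmp8, Timp1 and Timp3 had mean levels between 0.527 and 0.909 FPKM in Trem2_KO and between 0.367 and 1 FPKM in WT. In Trem2_KO, Mmp12 stood above Mmp19, and Mmp13 above Mmp9 and Mmp14, the reverse of their order in WT. This order between genes depends on the lengths used, 7237 bases for Mmp12 and 3533 bases for Mmp19. Mean CPM, which is not divided by length, gave the same reversals. There Mmp13 at 26.7 CPM lay close to Mmp14 at 25.6 CPM in Trem2_KO.

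Summed over members, the 7 MMPs came to 55, 55.3 and 56.7 FPKM in Trem2_KO and to 17.5, 17.7 and 16.5 FPKM in WT. The 3 TIMPs came to 67.2, 69.9 and 66.9 FPKM in Trem2_KO and to 93.4, 91.9 and 94 FPKM in WT. The TIMP sum was thus 1.18 to 1.26 times the MMP sum in Trem2_KO and 5.2 to 5.7 times in WT, with no overlap between the groups. Mmp12 held 34.9% to 37.2% of the MMP sum in Trem2_KO and 15.2% to 16.4% in WT, Mmp13 held 17.2% to 18.2% and 6.74% to 6.92%, and Mmp19 held 26.7% to 27% and 41.6% to 43.3%. Timp2 alone made up 53.1% to 54.8% of the 10 members' FPKM in Trem2_KO and 83.1% to 83.8% in WT. These sums and their ratio depend on the members chosen and on the gene lengths used. The length of Mmp12 was 7237 bases, merged over 7 transcripts, and that of Mmp13 was 2673 bases, from 1 transcript. Other lengths were not tried. With Mmp27, a further family gene added after its level was seen, the MMP sum was 85.7 to 88.4 FPKM in Trem2_KO and 40.9 to 43.4 FPKM in WT, and the TIMP sum was 0.757 to 0.816 times it in Trem2_KO and 2.12 to 2.3 times in WT. The TIMP sum was then below the MMP sum in Trem2_KO, and the groups still did not overlap. No test was made of these sums.

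**Figure D3:**
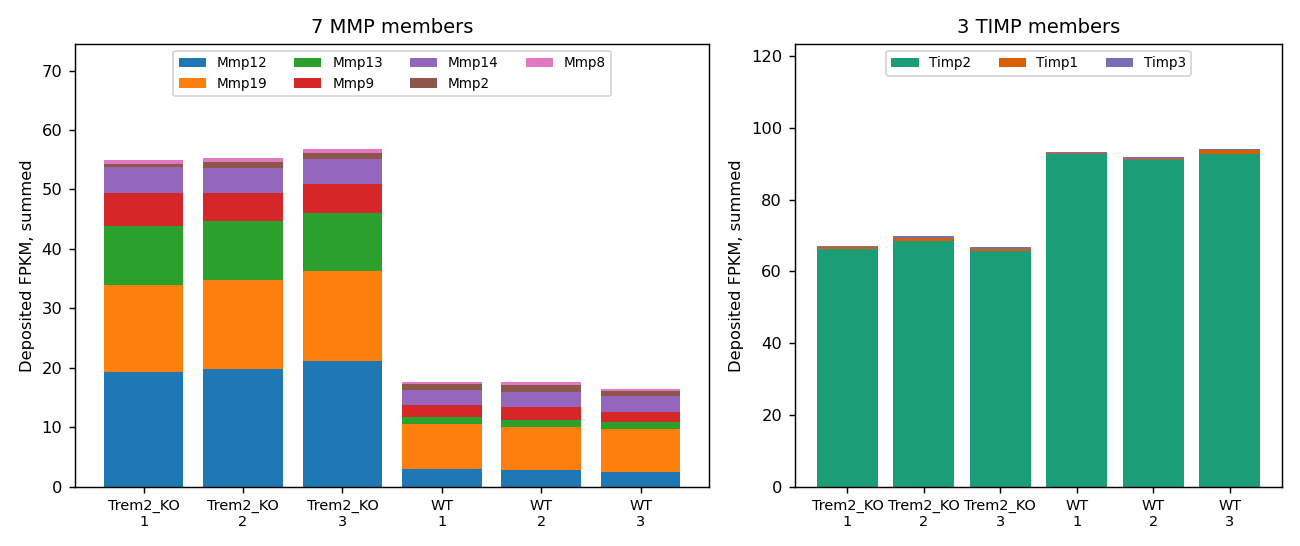
Deposited FPKM (vertical axes, from 0) stacked by gene for the 7 MMP members (left panel) and the 3 TIMP members (right panel) in 3 Trem2_KO and 3 WT libraries. The MMP stack reaches 55 to 56.7 in Trem2_KO and 16.5 to 17.7 in WT, and the TIMP stack, nearly all Timp2, 66.9 to 69.9 in Trem2_KO and 91.9 to 94 in WT.

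Mmp12, Mmp13 and Mmp8 lie in the MMP gene cluster of mouse chromosome 9, which holds 10 MMP genes over 427 kb (chromosome 9, 7272514 to 7699585, GRCm38). Of these, 4 could be tested and 3 were called higher, beside 15.3% of all tested genes. The other 6, Mmp1a, Mmp1b, Mmp3, Mmp7, Mmp10 and Mmp20, had 0 reads in every library, which allows up to 0.173 to 0.192 CPM. Beside Mmp13 and Mmp12, Mmp27 was called, with 1112 to 1244 reads in Trem2_KO and 848 to 893 in WT and a smaller change (log2 change 0.33, SE 0.0513, edgeR adjusted p = 7.78e-07). Per length Mmp27 stood at 31.4 ± 0.994 FPKM in Trem2_KO and 25.1 ± 0.665 in WT (SD, n = 3), above every MMP member in both groups. The lengths used were 2210 bases for Mmp27 and 7237 bases for Mmp12. By reads Mmp12 stood above Mmp27 in Trem2_KO, at 2376 to 2613, and below it in WT, at 286 to 327. Within 1 Mb on either side of the cluster, chosen after the values were seen, 8 other genes were tested. Birc3, an inhibitor of apoptosis, was called higher at 0.35, Tmem123 and the pseudogene Gm10709 were called lower at -0.16 and -0.70, and 5 were not called. Of all tested genes, 15.3% were called higher and 15.1% lower. Mmp13 and Mmp12 start 71.9 kb apart, and their nearest tested neighbour on the outer side, Dcun1d5, had a log2 change of -0.13 (SE 0.0608) and was not called (edgeR adjusted p = 0.102, and 0.05 without Trem2_KO replicate 1).

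**Figure D4:**
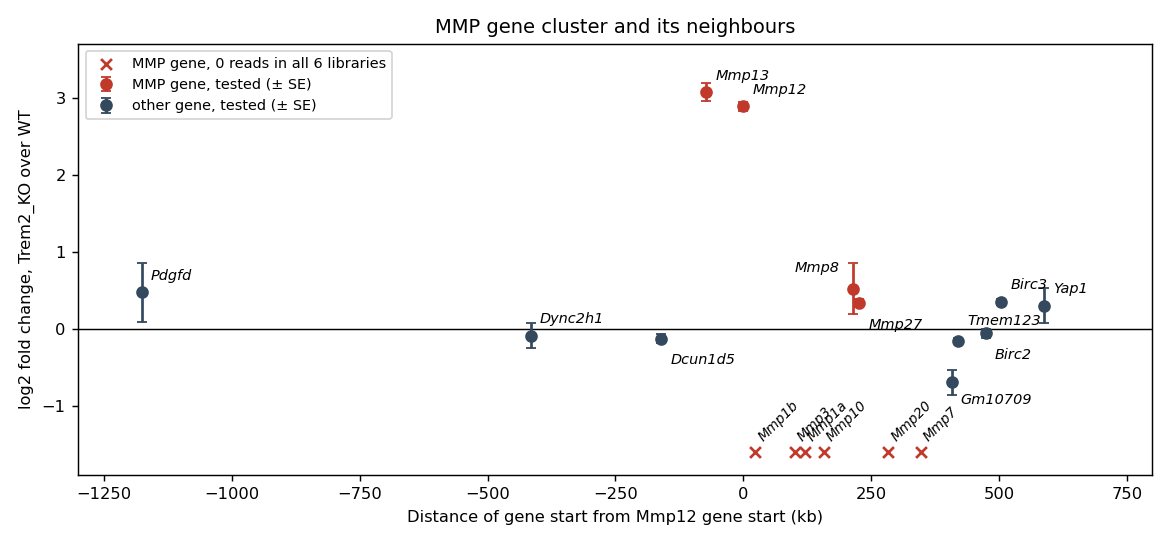
Log2 fold change of Trem2_KO over WT (vertical axis, ± SE) against the distance of each gene's start from the start of Mmp12 in kb (horizontal axis) for tested genes of the chromosome 9 MMP cluster and 1 Mb on either side; crosses mark MMP genes with 0 reads, placed at an arbitrary height. Mmp13 at 3.07 and Mmp12 at 2.89 stand above Mmp8, Mmp27 and the 8 other tested genes.

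Among the 4181 other called genes, those whose centred log2 CPM over the 6 libraries lay closest to Mmp12 by Euclidean distance were Mmp13 (distance 0.23), the antisense transcript 1700071M16Rik (0.32) and Dcstamp (0.43), which encodes a fusion receptor of osteoclasts and multinucleated macrophages. For Mmp13 they were Mmp12 (0.23), Dcstamp (0.26) and 1700071M16Rik (0.28). As the libraries of each group lay close together, such a distance mainly reflects how alike the log2 changes are. These changes were 2.89 for Mmp12, 3.07 for Mmp13 and 2.96 for 1700071M16Rik. Shared regulation of these genes was not tested. Dcstamp had 13 to 18 reads per knockout library and 0 in each WT library, so its distances rest on the prior count of 2 added to the reads and not on a measured WT level. 1700071M16Rik lies on chromosome 17, 4.75 Mb from Trem2, and had 589 to 644 reads in Trem2_KO and 66 to 79 in WT. Its span overlaps Pla2g7 on the other strand over 4103 bases and shares 319 exonic bases with it. Pla2g7 had 13946 to 15196 reads in Trem2_KO and 3923 to 4208 in WT. As the strand setting of the counting is not given, reads of the shared stretch cannot be told apart.

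Most other MMP genes were barely read. The counts of this and the following gene lists stand beside 15.3% of all tested genes called higher and 15.1% called lower. Of 16 further family genes 3 could be tested, with Mmp27 called higher and 0 called lower, and 7 had 0 reads in all libraries. Of 10 other inhibitors and clearance genes 4 were tested, 2 were called higher and 0 lower. Lrp1, the endocytic receptor that removes MMP and inhibitor complexes, changed by 0.15 (SE 0.0289, edgeR adjusted p = 0.000365) and Thbs1, thrombospondin 1, which binds MMPs and promotes their uptake, by 0.67 (SE 0.157) on the log2 scale. Reck, a membrane-anchored MMP inhibitor, had 2 to 4 reads in Trem2_KO libraries and 2 in each WT library, and Timp4 had 0 to 1 in Trem2_KO and 0 in WT.

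Genes for activation and docking of MMPs held 3 higher (27.3%, against 15.3% of tested genes) and 1 lower of 11 tested, with a median log2 change of 0.16, and 5 higher when scaled by total counts. Sdc1, the syndecan that docks MMPs at the surface, rose by 1.36 (SE 0.18), Lcn2, the lipocalin that binds and stabilises MMP9, by 1.76 (SE 0.372), and the integrin chain Itgav by 0.16 (SE 0.0348) on the log2 scale, while Bsg, an inducer of MMPs, changed by -0.16 (SE 0.0313). Lcn2 rested on 27 to 49 reads in Trem2_KO and 3 to 17 in WT, and its log2 change was 1.33 without WT replicate 2 and 2.37 without WT replicate 1.

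ADAM and ADAMTS proteases, the relatives of the MMPs, held 4 higher (36.4%) and 1 lower of 11 tested (median 0.11). Adam8, a myeloid sheddase, rose by 2.34 (SE 0.16, edgeR adjusted p = 1.06e-17), Adamts1, which cleaves proteoglycans, by 1.08 (SE 0.217) and Adam15 by 0.40 (SE 0.103) on the log2 scale. Adamts10, named after its values were seen, changed by 0.16 (edgeR adjusted p = 0.0495), a call lost without any 1 knockout library or WT replicate 1. Adam8 had 179, 186 and 194 reads in Trem2_KO libraries and 35, 35 and 32 in WT libraries, with no overlap. Adamdec1 changed by -0.10 (adjusted p = 0.0483), a call that was lost without any 1 library except Trem2_KO replicate 3. The plasminogen system, whose plasmin activates several pro-MMPs, held 4 higher (57.1%) and 1 lower of 7 tested (median 0.37). The urokinase receptor Plaur rose by 0.40 (SE 0.087), and the plasmin receptor subunits Anxa2 and S100a10 by 0.37 (SE 0.0584) and 0.68 (SE 0.22) on the log2 scale. The S100a10 call was lost without Trem2_KO replicate 1 or 3 or WT replicate 2. Without WT replicate 2 the list held 2 higher. Urokinase itself, Plau, named after its values were seen, was the lower gene (log2 change -0.22, SE 0.0783), a call lost without Trem2_KO replicate 2 or 3 or WT replicate 2.

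Lysosomal cathepsins and their inhibitors went the other way, with 9 lower and 1 higher of 14 tested and a median of -0.09. Legumain (Lgmn), Ctsh and Ctss changed by -0.14 (SE 0.0224), -0.16 (SE 0.0268) and -0.12 (SE 0.023), while Ctsk, a collagen-cleaving cathepsin known from osteoclasts, rose by 1.73 (SE 0.288, edgeR adjusted p = 2.98e-06) on the log2 scale. Ctsk had 43, 49 and 67 reads in Trem2_KO libraries and 17, 16 and 11 in WT libraries. Of 14 tested matrix genes, 8 were called higher (57.1%) and 0 lower (median 0.50). Spp1, osteopontin, a substrate of several MMPs, rose by 3.77 (SE 0.236) on the log2 scale. It had 121 to 146 reads in Trem2_KO and 8 to 10 in WT. Its log2 change ran from 2.1 to 3.85 when the processing was changed or a library was left out. The basement membrane genes Nid1, Col4a2 and Hspg2 rose by 1.33 (SE 0.188), 1.05 (SE 0.155) and 0.75 (SE 0.0953) on the log2 scale. The fibrillar collagen genes Col1a2 and Col3a1 were not called and were named after their values were seen, and Col1a1 had 2 to 3 reads in Trem2_KO and 1 to 5 in WT.

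Transcription factors of the AP-1 and ETS families, known regulators of MMP promoters, were split, with 7 higher (43.8%) and 6 lower of 16 tested and a median of -0.05. Fosb rose by 0.85 (SE 0.03), Atf3 by 0.79 (SE 0.0503), Fosl2 by 0.62 (SE 0.0317) and Junb by 0.27 (SE 0.0276) on the log2 scale. Jun changed by -0.11 (SE 0.0272), Jund by -0.20 (SE 0.0425) and Batf by -0.59 (SE 0.0812), all called lower and chosen after their values were seen.

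**Figure D5:**
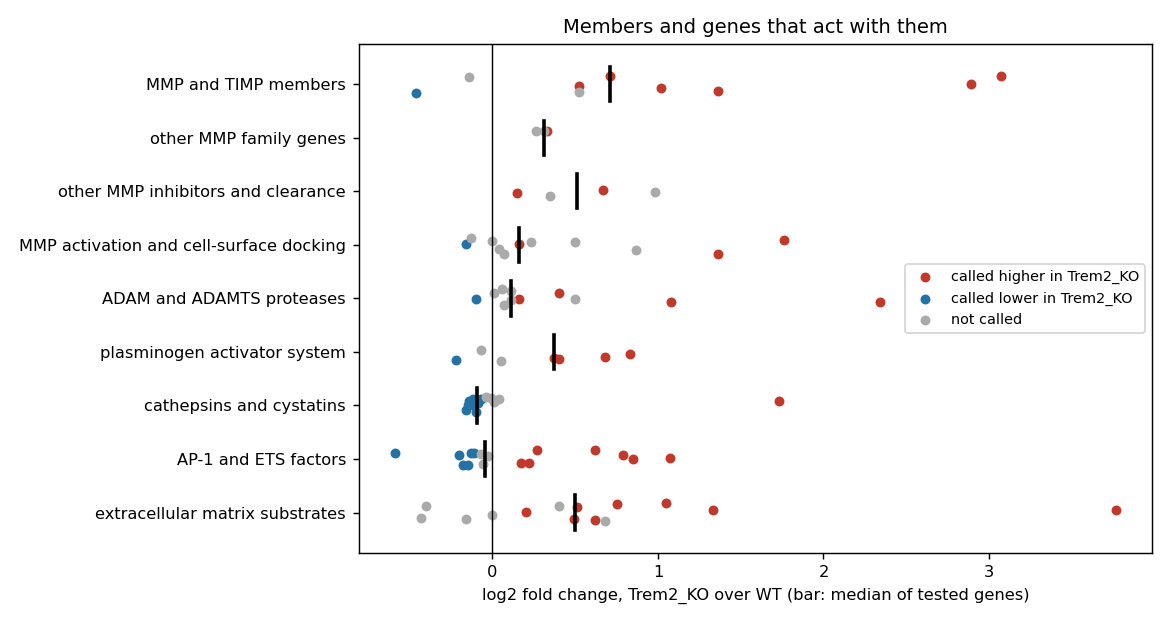
Log2 fold change of Trem2_KO over WT (horizontal axis) for each tested gene of the members and of 8 lists of genes that act with them (rows), coloured by call, with the median as a black bar. The members' median is 0.71, the cathepsin median is -0.09 with 9 genes called lower, and Spp1 at 3.77 is the rightmost point.

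Markers of other liver cells were read in the same libraries. Of 15 sinusoidal endothelial markers 12 were called higher (Stab2, Clec4g, Lyve1, Kdr, Flt4, Ptprb, Ehd3, Eng, Oit3, Fcgr2b, Bmp2 and Gpr182) and Cdh5 lower, with a median log2 change of 0.44. The Stab2 call was lost without knockout replicate 1 or 2 or WT replicate 1 or 3, and the Clec4g call without knockout replicate 1 or any 1 WT library. The summed level of the 15 markers was 2020 to 2040 CPM in Trem2_KO and 2040 to 2060 CPM in WT. Most of it was Cdh5, at 1120 to 1130 CPM in Trem2_KO and 1250 to 1260 CPM in WT. Without Cdh5 the sum was 899 to 909 CPM in Trem2_KO and 786 to 799 CPM in WT. Most of that rest was Stab2 and Pecam1, with log2 changes of 0.08 and 0.03. Whether Cdh5 was read from endothelial cells was not tested. Among monocyte markers, Ccr2, Cx3cr1, Chil3 and Fn1 rose and Plac8 fell, 4 and 1 of 10, with sums of 162 CPM in each knockout library and 149 to 152 CPM in WT. Ccr2 and Cx3cr1 changed by 1.45 (SE 0.115) and 1.46 (SE 0.124) on the log2 scale, and 2 monocyte markers were called higher without Trem2_KO replicate 2, WT replicate 1 or WT replicate 2, where Chil3 and Fn1 lost their calls. The Fn1 call was also lost without Trem2_KO replicate 1. The part of either cell type in the MMP changes was not tested.

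Neutrophil markers, which bear on Mmp8 and Mmp9, held 0 higher and 1 lower of 3 tested, with a sum of 182 to 191 CPM in Trem2_KO and 193 to 209 CPM in WT. Nearly all of it was Csf3r, the gene called lower, and that call was lost without Trem2_KO replicate 1 or 2 or WT replicate 3. Ly6g had 0 reads in all libraries, and Elane and Mpo had 0 to 3 in Trem2_KO and 0 to 1 in WT. Stellate cell and fibroblast markers, which bear on Mmp2, Timp1 and Timp3, held 3 higher (Ecm1, Hgf and Col14a1) and 0 lower of 12 tested, with a median of -0.27, and 1 was called lower without Trem2_KO replicate 3, WT replicate 1 or WT replicate 2. Their sum was 265 to 268 CPM in Trem2_KO and 217 to 225 CPM in WT, most of it Ecm1, while Acta2 had 4 to 7 reads in Trem2_KO and 2 to 9 in WT.

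Kupffer cell markers held 0 higher and 10 lower of 14 (Clec4f, Timd4, Vsig4, Cd5l, Marco, Clec1b, Cd68, C1qa, C1qb and Id3), with a median of -0.15 and a sum of 47600 to 48700 CPM in Trem2_KO and 52800 to 54800 CPM in WT. Hepatocyte markers held 3 higher (Cyp3a11, Tat and Pck1) and 5 lower (Apoa1, Ahsg, Serpina3k, Mup3 and Fgb) of 12, with a sum of 1400 to 1440 CPM in Trem2_KO and 1640 to 1700 CPM in WT. Dendritic cell markers held 1 higher (Clec9a) and 1 lower (Batf3) of 6 tested, and B, T and NK cell markers 0 higher and 1 lower (Cd79b) of 6 tested. The Clec9a call was lost without knockout replicate 2, knockout replicate 3, WT replicate 1 or WT replicate 2, the Batf3 call without Trem2_KO replicate 3, and the Cd79b call without Trem2_KO replicate 1 or WT replicate 1 or 2. The part of these cells in the members' changes was not tested.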

How the data were processed

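Libraries were prepared with a TruSeq kit from total RNA of sorted Kupffer cells, per the labels. The authors deposited raw counts, whole reads per gene, with no scaling applied. Per the submitters' processing notes, the tools included featureCounts (1.5.0-p3), DESeq2 (1.16.1) and HISAT2 (2.0.5), and the builds were GRCm38 and mm10. No source used here states how strand or reads that match several genes were handled. The deposited FPKM values equal count over gene length over 1 constant per library, 0.989 to 1.02 times the library total.

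The whole count table was tested with edgeR 4.0.16 under R 4.3.3 (filterByExpr per group, TMM, robust quasi-likelihood, genotype alone), with Benjamini-Hochberg adjustment over 13776 genes that held 99.85% to 99.87% of counts. Each SE is the log2 change over the root of its quasi-F, and 95% intervals follow from it. The fit was tested on simulated data. Groups and replicate numbers come from sample titles. Libraries of 1 group differed beyond sampling noise (ratio of chi-square to its degrees of freedom, 1.94 to 2.79).

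The members and lists were chosen with earlier results of these data known. Named from each list are up to 4 called genes by smallest p, or 2 where none was called, and all called cell type markers. A gene that this rule selects is not reported here. Gene spans of all 10 members match GENCODE M21. Alternatives were other scalings, filters and tests (DESeq2 1.42.0, limma 3.58.1 with voom or on log2 FPKM plus 1 or 0.1), a replicate block, leaving out each library and, added after the data were seen, a fixed biological coefficient of variation.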

Additional observations from a re-analysis of the deposited data

How the results depend on the processing

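Each tested member was refitted under 18 alternatives, which gave 162 member values: 149 kept their side of the threshold, 13 lost the call and 0 called members reversed, while Mmp2, which was not called, ran from -0.25 to 0.06. Mmp12 (log2 change 2.51 to 2.93), Mmp13 (2.32 to 3.10), Mmp9 (1.03 to 1.41) and Mmp19 (0.93 to 1.05) were called higher under all 18. With the biological coefficient of variation, estimated at 0.0378, fixed at 0.1 for every gene, 1487 genes were called, and at 0.2, 371 genes and 0 members as lower. At 0.2 Timp2 (adjusted p = 0.567), Mmp14 (0.114) and Timp3 (0.631) lost their calls, since a larger spread was imposed. Timp3 lost its call under 11 alternatives (adjusted p = 0.0562 to 0.631). Leaving out 1 library gave 3377 to 3909 called genes, 5 to 6 members higher and 1 to 1 lower. With total counts in place of TMM, 61.3% of calls were higher against 50.3%, and the members' calls stayed at 6 higher and 1 lower. No pairing of libraries by replicate number was seen. Deviations of same-numbered libraries correlated at -0.008 to 0.036 across genes, and not every library correlated best with its own number. With 3 libraries per group and counting noise in each gene, these values cannot exclude a pairing. The replicate block gave 4230 called genes with 6 members higher and 1 lower. Of 1403 values of 88 other named genes, fixed spread aside, 94 changed side of the threshold and 0 reversed. Depth limits Timp1, Mmp8, Mmp2 and Timp3.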
